A study of Drosophila melanogaster with 2 samples.

Results

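DNA replication factor genes encode the proteins that select origins, unwind the double helix, copy it and join the new strands, together with the E2F regulators of many of these genes. The 47 listed genes were chosen by name, with earlier results of these data known. Of them, 40 had at least 1 probe set assigned to them alone, of the 11983 fly genes measured in this way. The data come from 2 Affymetrix Drosophila Genome 2.0 arrays, which measure each transcript with sets of short probes. Both arrays, replicates 1 and 2, belong to 1 group: Drosophila melanogaster S2 cells soaked for 8 days with double-stranded RNA (dsRNA) directed at GFP, a jellyfish protein with no counterpart among fly genes. The dsRNA was given in 2 rounds of 4 days, and no genetic modification is named in the labels. S2 is an established, dividing line of embryonic origin with traits of blood cells (hemocytes). No other condition was analysed here, so no effect of the dsRNA can be stated, and nothing in the labels says that the duplicates were separate cultures, so their spread may be technical.

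In animal cells, origins are licensed when the origin recognition complex (ORC), Cdc6 and Cdt1 load the ring-shaped Mcm2-7 complex onto DNA. The kinase Cdc7 and cyclin-dependent kinases then turn it into the active helicase by adding Cdc45 and the GINS complex. Primase and polymerase alpha start new strands, the clamp loader RFC places the sliding clamp PCNA, and polymerases delta and epsilon extend. In flies, E2f1 with its partner Dp activates many replication genes, while E2f2 and the retinoblastoma relative Rbf repress E2F targets.

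All 40 measured replication genes were detected on both arrays. A gene was called detected when a probe set of its own had a signal above a background limit of 146 on replicate 1 and 136 on replicate 2. Each limit is the 95th percentile of the 125 probe sets that read chemosensory receptors of smell and taste, genes not known for a role in blood-like cells. Of all 11983 genes, 49.1% were detected by that rule. The count of replication genes was 39 of 40 with the stricter 99th percentile limit (184 on replicate 1 and 279 on replicate 2), by which 43.8% of all genes passed. The gene lost was Orc2. These shares describe the genes on the same pair of arrays, and genes are not independent replicates. The list was chosen with earlier results of these data known, so its share is not that of an unbiased choice.

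The deposited values are linear signal intensities, and probe sets respond differently, so signals of different genes do not rank their transcripts by abundance. In a lysate of many cells, expression in fewer cells and less RNA per cell cannot be told apart. As a check of the labelled cell type, 11 of 12 measured hemocyte markers were detected, with NimC1 below the limit. Of 14 measured markers of neurons, muscle, testis and ovary, 1 was detected, namely elav. On replicates 1 and 2, the hemocyte marker eater had 233 and 229 and elav 209 and 183, and both failed the 99th percentile limit. Cp15, an ovary marker, had 114 and 161, above the limit on replicate 2 only. For description only, since the sums add unlike probe sets and a few bright ones carry them, the marker signals summed to 51182 and 53583 for hemocytes and 725 and 702 for the other tissues on replicates 1 and 2. No marker was at a signal of 0 on either array.

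**Figure D1:**
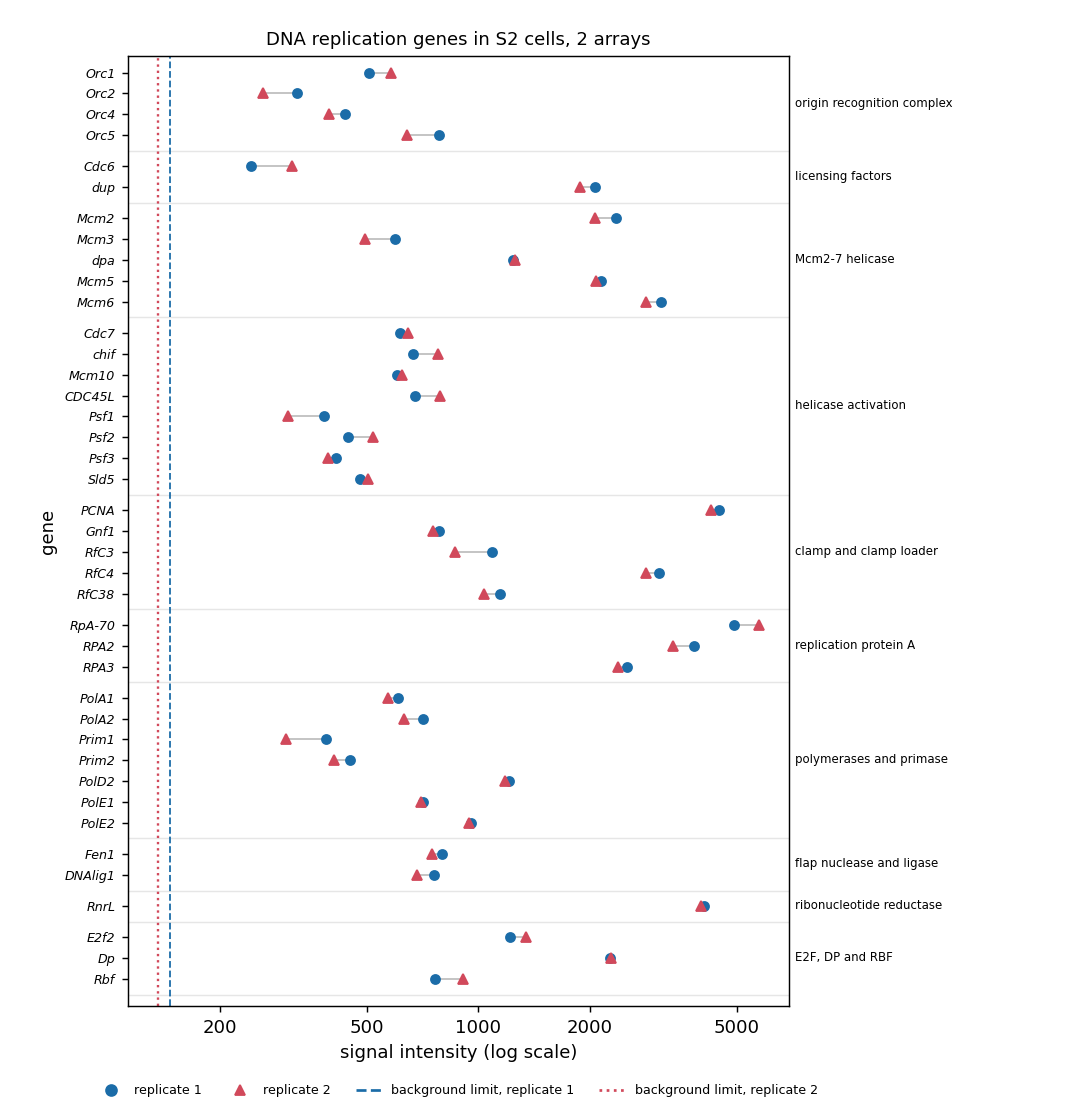
Signal intensity (log axis) of the 40 measured replication genes on replicate 1 (circles) and replicate 2 (triangles), grouped by role, with the background limits of 146 and 136 as vertical lines. Every gene lies to the right of both limits, from 242 for Cdc6 on replicate 1 upwards.

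Origin recognition was represented by 4 of 6 listed subunits, and all 4 were detected. Orc1, the subunit that in animals carries much of the ATPase activity of the complex, had signals of 505 and 581 on replicates 1 and 2. Orc2 had 322 and 261, and Orc4 had 435 and 395. Orc5 had 781 and 642. Orc1 was the brighter one on replicate 2, while the other 3 were brighter on replicate 1. On the log2 scale, replicate 2 differed from replicate 1 by 0.20 for Orc1, -0.30 for Orc2, -0.14 for Orc4 and -0.28 for Orc5. For comparison, the standard deviation (SD) of this difference over all 5886 detected genes was 0.22, which Orc2 and Orc5 exceeded. The gene listed as lat, now named Orc3, has no probe set of its own here, and Orc6 was not analysed here.

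Of the licensing factors, Cdc6 and dup were measured. Cdc6, the ATPase that joins ORC to load the helicase, had the lowest ratio of signal to limit of all 40, with 242 and 312 on replicates 1 and 2, or 1.66 times the limit on replicate 1. Its arrays differed by 0.37 on the log2 scale or 1.29-fold, the largest difference as deposited, while Prim1 differed more under each of the 3 scalings tried. By contrast, dup (double parked), the fly Cdt1, had 2065 and 1887, a difference of -0.13 that lies within 1 SD of detected genes. The Cdt1 inhibitor geminin was not analysed here.

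The helicase core was measured through 5 of its 6 subunits, since Mcm7 was not analysed here. Mcm2 had signals of 2351 and 2066 on replicates 1 and 2, and Mcm3 had 594 and 492. The Mcm4 gene, dpa (disc proliferation abnormal), had 1237 and 1257. Mcm5 had 2152 and 2085, and Mcm6 had 3121 and 2839. All 5 were well clear of the limits, the nearest being Mcm3 at 3.63 times the limit on replicate 2. As deposited, 4 of the 5 were lower on replicate 2, against 50.5% of all detected genes, and dpa was higher by 0.023. With both arrays scaled to 1 median dpa was lower as well. The group's median difference was -0.14, and only Mcm3, at -0.27, exceeded 1 SD of detected genes.

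The factors that switch the loaded ring on were all measured, 8 of 8, and all were detected. Cdc7, the kinase that phosphorylates the Mcm ring, had 614 and 645 on replicates 1 and 2. Its regulatory subunit of the Dbf4 type, chif (chiffon), was the only replication gene with 2 probe sets. One of them had 664 and 778, and the other had 391 and 385. Both chif probe sets were above the limit, but they differed between the arrays by 0.23 and -0.021, so the difference of chif depended on which was read.

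Mcm10, which stabilises the helicase at initiation, had 601 and 622. CDC45L, the gene for the helicase cofactor Cdc45, had 672 and 785. The GINS complex was measured in full. Its subunit genes Psf1 and Psf2 had 383 and 306, and 444 and 520. Psf3 had 411 and 392, and Sld5 had 479 and 503. The 4 partners of this stable complex did not move alike between the duplicates, with differences of -0.32 for Psf1, 0.23 for Psf2, -0.07 for Psf3 and 0.07 for Sld5. Of the 8 helicase activation genes, 6 were higher on replicate 2 as deposited and 5 after median scaling, where Mcm10 turned. None was higher after scaling to the hybridisation controls described further on. Of all detected genes, 50.5% were lower on replicate 2 as deposited.

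At the fork, PCNA, the sliding clamp that tethers polymerases and many repair proteins, had signals of 4477 and 4264 on replicates 1 and 2. The large clamp loader subunit gene Gnf1 had 783 and 751. The small subunit genes RfC3, RfC4 and RfC38 had 1087 and 866, 3089 and 2837, and 1144 and 1034. All 5 clamp and loader genes were lower on replicate 2 as deposited, where 50.5% of all detected genes were lower. Their differences ran from -0.33 for RfC3, which was the only one beyond 1 SD of detected genes, to -0.06 for Gnf1.

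Replication protein A (RPA) coats single-stranded DNA at the fork, and its 3 subunits were all measured. The large subunit gene, RpA-70, had signals of 4917 and 5741 on replicates 1 and 2. RPA2 had 3845 and 3372, and RPA3 had 2522 and 2382. All 3 exceeded the highest signal of any receptor probe set, which was 1523 on replicate 1 and 1458 on replicate 2. That signal lay far above the limits, and whether it is background was not tested. All 3 were also above 10 times the limit on both arrays, as were 15.3% of all genes by their brightest probe set. As deposited, RpA-70 differed by 0.22 between the arrays, RPA2 by -0.19 and RPA3 by -0.08.

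The polymerase and primase genes were measured for 7 of 8 members, since the catalytic subunit gene PolD1 was not analysed here. PolA1, the catalytic subunit of polymerase alpha, had 608 and 571 on replicates 1 and 2, and its accessory subunit gene PolA2 had 710 and 630. Prim1, the catalytic primase subunit that writes RNA primers, had 388 and 301, and the large primase subunit gene Prim2 had 450 and 406. These 4 genes encode 1 complex, and each was above both limits and lower on replicate 2, where 50.5% of all detected genes were lower as deposited.

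Of the polymerases that extend the strands, the accessory delta subunit gene PolD2 had 1207 and 1178. The catalytic epsilon subunit gene PolE1 had 710 and 697, and its partner PolE2 had 955 and 941. The duplicates were within 0.04 of each other on the log2 scale for all 3, well inside the SD of detected genes. As deposited, all 7 polymerase and primase genes were lower on replicate 2, as were 50.5% of all detected genes. Only Prim1, at -0.36, was beyond 1 SD of detected genes.

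Fen1, the nuclease that trims flaps from Okazaki fragments, had 798 and 747 on replicates 1 and 2. DNAlig1, the ligase that seals them, had 756 and 683. RnrL, the large subunit of the ribonucleotide reductase that makes deoxynucleotides, had 4076 and 3996, while RnrS, the small subunit gene, was not analysed here. All 3 measured genes were detected, and their differences of -0.09, -0.15 and -0.029 lay within 1 SD of detected genes.

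Among the regulators, E2f2 had 1215 and 1346 on replicates 1 and 2. Dp, the shared partner of both fly E2F proteins, had 2273 and 2287. Rbf had 762 and 908. All 3 were detected and, as deposited, all 3 were higher on replicate 2, by 0.15, 0.0087 and 0.25 on the log2 scale. Of all detected genes, 50.5% were lower on replicate 2 as deposited. With median scaling Dp was lower, and with scaling to the hybridisation controls all 3 were lower. The activator E2f1 has no probe set of its own here. The only one naming it is shared with the gene Torsin and lay below both limits, at 97.6 and 81.9, so no statement on E2f1 can be made from it.

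How far each gene stood above background decides how firm its detection is. On the array with the lower ratio of signal to limit, 38 of 40 genes were above 2 times the limit, 33 above 3 times, 21 above 5 times and 11 above 10 times. Among all 11983 genes, by their brightest probe set, 42.5% were above 2 times the limit, 37.2% above 3 times, 28.3% above 5 times and 15.3% above 10 times. Cdc6 and Orc2 were the pair at or under 2 times the limit. The 11 genes above 10 times the limit were dup, Mcm2, Mcm5, Mcm6, PCNA, RfC4, RpA-70, RPA2, RPA3, RnrL and Dp. The same 11 exceeded every receptor probe set on both arrays. The brightest receptor signals, 1523 and 1458 on replicates 1 and 2, lay only a little above 10 times the limits. Both cuts therefore nearly coincide, and the share of all genes above every receptor probe set is not given here. As a description, the median signal was 771 and 764 on replicates 1 and 2 over the 40 genes, and 906 and 909 over all detected genes.

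**Figure D2:**
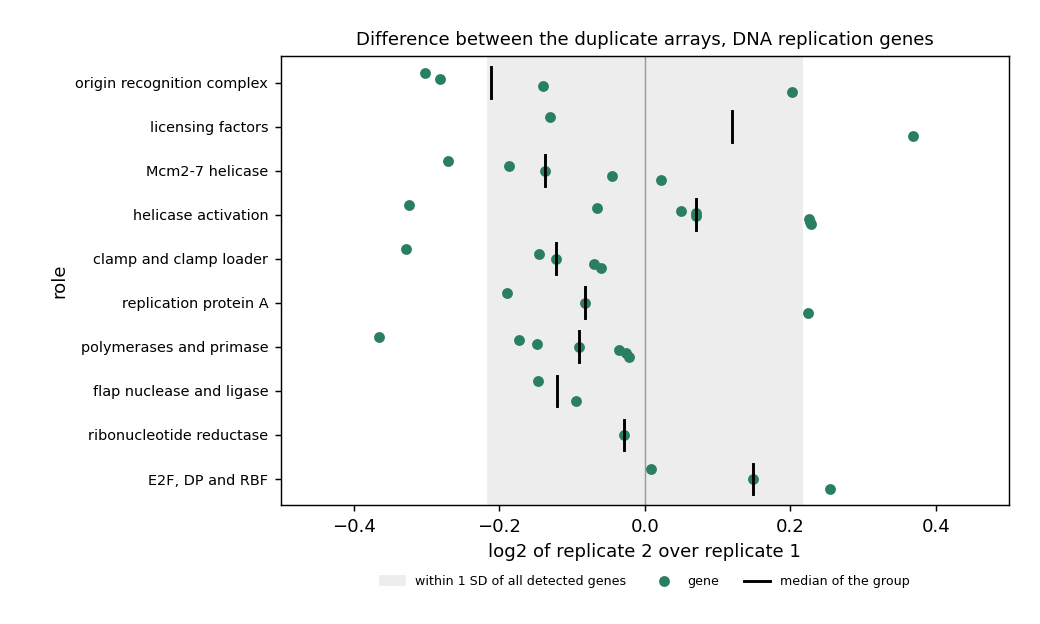
Log2 of replicate 2 over replicate 1, signals as deposited, for each replication gene (points) by role, with the median of each role (bars) and 1 SD (0.22) of all detected genes on either side of 0 (grey band). The polymerase and clamp genes all lie left of 0, the E2F, DP and RBF genes right of it, though Dp moves left with median scaling and all 3 do with scaling to hybridisation controls, and 28 of the 40 points fall inside the band.

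The second comparison was between the duplicates. With 1 array on each side it has no test. Of the 40 genes, 27 had a lower signal on replicate 2 and 13 a higher one, whereas 50.5% of all detected genes were lower on replicate 2. The median log2 difference of the replication genes was -0.07 and their SD 0.18, compared with a median of -0.0022 and an SD of 0.22 over all detected genes. As deposited, no replication gene differed by more than 1.29-fold, and with median scaling the largest difference was 1.34-fold, for Prim1, which reached 1.58-fold with scaling to the hybridisation controls. As deposited, the SD of the 2 signals of a gene ranged from 0.429% of its mean for Dp to 18.0% for Cdc6, with a median of 6.99%.

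Differences beyond the SD of all detected genes were found for 12 of 40 replication genes, and 26.0% of all detected genes exceeded it. Of the 12, 6 were lower on replicate 2, namely Orc2, Orc5, Mcm3, Psf1, RfC3 and Prim1. The other 6, Cdc6, chif, CDC45L, Psf2, RpA-70 and Rbf, were higher as deposited. With median scaling 9 genes were lower beyond the same SD, now with Mcm2, RPA2 and PolA2, and Cdc6 alone was higher beyond it. With quantile normalization 6 were lower and 2 higher, and with the hybridisation controls 32 were lower and none higher. The share of all detected genes beyond that SD was not counted under these scalings. The median difference of all detected genes was -0.06 with median scaling, -0.009 with quantile normalization and -0.30 with the hybridisation controls. The last is itself beyond the SD of 0.22, so the count of 32 cannot be read as a trait of the replication genes. As deposited, the share of 12 in 40 is near that of all genes. Of the 4932 detected genes with a mean signal in the range of the replication genes, 51.7% were lower on replicate 2, and the SD was 0.20.

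The split between lower and higher depended on how the arrays were put on 1 scale. After scaling to the same median, 30 of 40 replication genes and 62.9% of detected genes were lower on replicate 2, and dpa, Mcm10 and Dp changed sign. After quantile normalization 27 of 40 and 52.1% were lower. The 18 hybridisation control probe sets, which read transcripts added in fixed amounts, all read higher on replicate 2, with a median difference of 0.30. Several of them read the same added transcript, so the 18 are not independent controls. Scaling replicate 2 to these controls, a setting chosen after the values were seen, put 39 of 40 replication genes and 92.0% of detected genes lower, Cdc6 being the exception at 0.07. The part of the control probe sets in the split was not tested beyond this scaling.

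**Figure D3:**
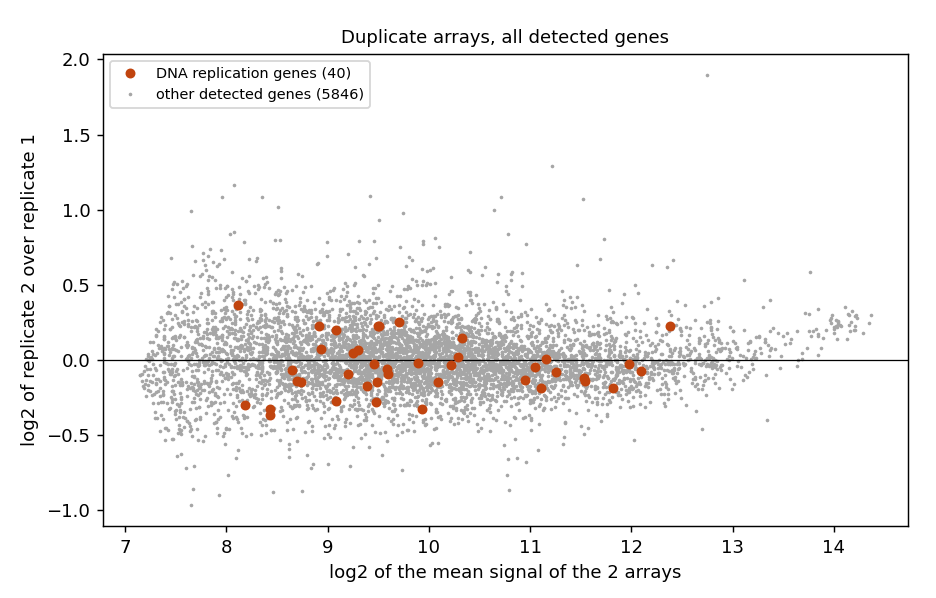
Log2 of replicate 2 over replicate 1, signals as deposited, against the log2 of the mean signal for the 40 replication genes (large points) and the other 5846 detected genes (small points). The replication genes lie between -0.36 and 0.37, inside the cloud of the other genes.

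Neighbouring genes were read from the RefSeq gene order of the fly release 6 assembly. RpA-70 and Mcm2 are direct neighbours with no protein-coding gene between them and no overlap of their spans. Both were detected, but they differed in opposite senses between the arrays as deposited, by 0.22 for RpA-70 and -0.19 for Mcm2. The latter lay within 1 SD of detected genes. With scaling to the hybridisation controls both were lower on replicate 2, RpA-70 at -0.07 and Mcm2 at -0.48. Cdc7 and Mcm6 have 3 protein-coding genes between them, and E2f1 and PolA1 have 2. Among 68 measured genes that directly flank a measured replication gene and are not replication genes themselves, 43 (63.2%) were detected. This share is near the 64.3% found for the measured flanking genes of all detected genes.

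Detection was also read for a companion list of S-phase genes outside the replication factors, covering cell cycle control, proteolysis, repression, histone deposition, fork factors, checkpoints, further polymerases, meiotic Mcm relatives and nucleotide supply. Of 59 listed genes 47 were measured, and 44 (93.6%) were detected, against the 49.1% of all genes given above. This list too was chosen with earlier results of these data known. With the 99th percentile limit 36 of the 47 were detected, and 39 of the 40 replication genes.

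The 3 companion genes not detected were Blm, the fly Bloom helicase gene, at 118 and 105 on replicates 1 and 2, PolD3, at 56.5 and 13.4, and rec, a meiotic Mcm relative, at 90.6 and 83.8. PolD3 encodes an accessory subunit of polymerase delta, whose subunit gene PolD2 was detected. A missing signal from a probe set gives no upper bound on the transcript, since the response of the probe set is not known.

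Companion genes that act on the licensing step were detected throughout, 4 of 4, among them Cul4 (1122 and 1226) and pic (3531 and 3724), parts of a ubiquitin ligase that targets Cdt1 in animals. The S-phase cyclin gene CycE had 2094 and 1973, and its kinase partner gene Cdk2 had 984 and 799. The dREAM complex, which holds E2f2 and Rbf or its relative in flies, was represented by mip120 (1025 and 900) and mip130 (327 and 341), and all 4 of its listed further subunits were detected. The histone chaperone gene asf1 had 608 and 637. The chromatin assembly factor gene CG12109, whose large-subunit product acts behind the fork, had 959 and 1053. Of such genes 6 of 6 were detected, but Caf1-105, at 204 and 246, did not pass the 99th percentile limit.

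Among the fork factors Ctf4, which couples the helicase to polymerase alpha in yeast, had 1058 and 1045, and mus101, the fly TopBP1, had 343 and 241. The checkpoint genes Claspin and timeout had 540 and 349, and 373 and 368, and all 10 measured checkpoint genes were detected, of which 7 passed the 99th percentile limit. As deposited, 5 detected companion genes differed between the arrays by more than any replication gene on the log2 scale. They were Claspin at -0.63, mus101 at -0.51, PolZ1 at 0.49, DNAlig4 at 0.44 and Ctf18 at 0.38. The last 3 were named after their values were seen, and mus101 did not pass the 99th percentile limit. The share of all detected genes with differences as large was not counted, so these 5 give no contrast between the lists. The SD of the difference was 0.23 over the detected companion genes and 0.22 over all detected genes. The epsilon subunit gene listed as Pole4 had 1406 and 1229, and PolG1, the mitochondrial polymerase gene, had 587 and 626. The deoxynucleoside kinase gene dnk and the dUTPase gene had 6522 and 5854, and 2569 and 2455. As deposited, 22 of the 44 detected companion genes were lower on replicate 2 and 22 higher, with a median difference of 0.013, and whether this differs from the replication genes was not tested.

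**Figure D4:**
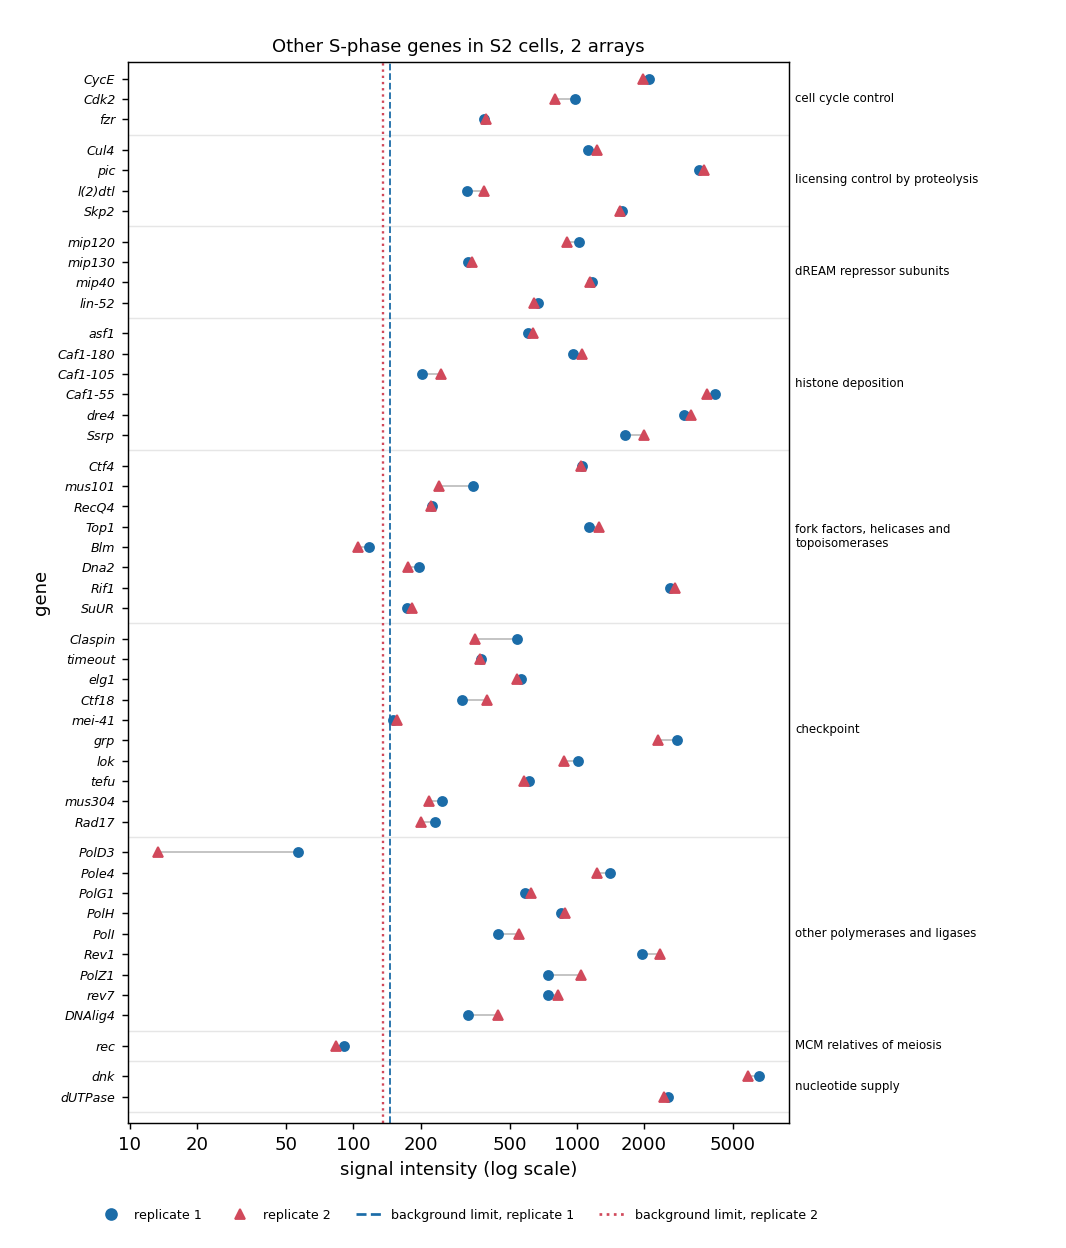
Signal intensity (log axis) of the 47 measured companion S-phase genes on replicate 1 (circles) and replicate 2 (triangles), grouped by class, with the background limits of 146 and 136 as vertical lines. Blm, PolD3 and rec lie left of the limits, and the other 44 genes lie right of both.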

How the data were processed

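Total RNA of the 2 samples was primed from its poly(A) tails, amplified and labelled, and 10 µg was hybridised for 16 hours, per the labels' protocols. The values deposited by the authors are intensities on a linear scale, 1 for each probe set on each array. How probes were summarised, scaled or filtered is not stated in the sources used here. Intensities were used as deposited, from 0.128 to 24533, with medians of 70.8 and 73.8. The number of arrays limits the precision.

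The platform annotation assigned 13647 of 18952 probe sets to 1 gene, and symbols were updated through a RefSeq gene table (release 6). Of the 40 measured replication genes, 38 matched by current symbol and 2 by an older synonym. The synonym lat also belongs to the receptor gene et (483 and 523), which was not counted. Of the remaining 7 listed genes, 5 had no probe set in the annotation used and 2 only a shared one. The brightest probe set stood for a gene. Log2 differences used signals raised to at least 1. No test was possible in a single group of 2 arrays. The members and lists were chosen with earlier results of these data known. Named were all measured members, companion genes not detected, and the first 2 detected companion genes of each class. The calculation of detection and differences was checked on simulated data. Background and expressed genes did not overlap in signal there, so the check says nothing on detection near the limit. Python 3.11.15 and pandas 2.3.3 were used.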

Additional observations from a re-analysis of the deposited data

Results flagged for a closer look

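One signal outside the comparisons was above background. The probe set that the annotation shares between Orc3 (listed as lat) and CG34315 had 244 on replicate 1 and 245 on replicate 2, a mean of 244 ± 0.614 (SD, n = 2), above the limits of 146 and 136. Which of the 2 genes it reads was not tested.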

How the results depend on the processing

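The count of detected replication genes was 39 to 40 under all 8 alternatives (another percentile, a limit from 50 control probe sets, every probe set required, single probe sets, probe sets that may match several transcripts left out, either array alone) and 41 of 41 when et was counted, a choice made after the data were seen. It was 39 of 40 with the 99th percentile limit and 39 of 39 for genes with a single probe set. Limits below the one used, and either array alone, could not lower the count of replication genes. For the companion genes the count ran from 36 of 47 with the 99th percentile limit to 46 of 47 with the control limit. It was 42 of 45 for genes with a single probe set, and 39 of 42 without probe sets that may match several transcripts. With either array alone it was 44 of 47, where it could not fall below the count on both. The median difference of the replication genes was -0.13 to -0.07 under the planned scalings, floors and limits. It was -0.36 after scaling to the hybridisation controls, which moved all detected genes by a like amount, to a median of -0.30. Of 280 single-gene values under the planned limits, single arrays and scalings, 279 kept their side of the limit or moved by less than the SD of all detected genes. The exception was Orc2 with the 99th percentile limit. Most of these values could not change, so the count of 279 says little on robustness. The 90th percentile limit and the control limit lie below the limit used. A gene detected on both arrays also passes on either alone. Median scaling moves every gene by 1 constant smaller than the SD of all detected genes. By that rule dpa, Mcm10 and Dp count as kept, although their sign changed with median scaling. Scaling to the hybridisation controls is not among the 280 and moved each of the 40 genes by 0.30 on the log2 scale, more than that SD. Median and control scaling shift every gene by 1 constant, so genes lower on replicate 2 as deposited could not turn. The planned search for E2F and DRE motifs in promoters was not run, because no promoter sequence was used here. No paired analysis was possible because there is a single group. Detection near the limit, as for Cdc6, is limited by signal over background.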
